A study of Homo sapiens with 6 samples.

Results

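The subject here is the elongation wave of RNA polymerase II in irradiated cells, followed over 3 times in 3 of the 6 libraries of the series. The libraries were chosen by treatment and are all those labelled as UVC irradiated. They came from MRC5VA, an immortalised human lung fibroblast line. All 3 cultures had been held in DRB at 100 µM for 3.5 hours and had received UVC at 15 J/m2 while DRB was present. DRB was then washed out, and nuclei were taken 10, 25 or 40 min later for GRO-seq. In this assay polymerases engaged on DNA extend their transcripts in isolated nuclei, here over 5 min. They incorporate BrUTP, so that nascent RNA can be captured by an antibody before sequencing. Each time was represented by 1 library, so differences between times had no replicate check, and no test was made. The untreated libraries of the series were not used here. The values below therefore describe change over time after UVC and release, without separating the 2.

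As background, DRB inhibits the kinase of P-TEFb, which releases RNA polymerase II from its pause near the start of genes. While DRB is present polymerases gather near gene starts, and after its removal they set off together and can be followed as a wave. UVC joins neighbouring pyrimidines in DNA into dimers, and a dimer in the transcribed strand is a known block to RNA polymerase II. In transcription-coupled repair the stalled polymerase itself recruits the repair proteins.

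The deposited profile of a library is an average over genes at 122001 positions from -2000 to 120000 bp. Signal below is in the deposited units, whose scaling is not given in the sources used here, and position 0 was taken as the start of genes. Over all positions the means were 1.40, 1.42 and 1.43 in time order, so the 3 profiles held nearly equal totals. In steps, the smallest unit of each library, this was 28435, 28343 and 29687 per position. What 1 step counts is not stated, so the read depth is unknown and no counting interval could be given. In an average over bulk cells, fewer polymerases per active gene and fewer active genes or cells cannot be told apart.

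With time, signal as deposited was lower at and before gene starts and higher from 4 to 37 kb in the gene body. Most of the difference lay between 10 and 25 min. From 0 to 2 kb the mean signal was 8.48, 5.13 and 4.79 in the 10, 25 and 40 min libraries. The 10 min library stood apart there, while the later times differed by a ratio of 0.935. From 2 to 5 kb the 3 libraries were close, with 4.80, 4.30 and 4.39. From 5 to 10 kb the order was turned round, with 1.78 at 10 min, 2.84 at 25 min and 3.01 at 40 min.

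Further into genes the level was lower in every library but differed more between times. From 10 to 15 kb the mean signal was 0.847, 1.78 and 2.04 at 10, 25 and 40 min. This window had the highest ratio of 25 to 10 min of the 11 windows examined, 2.10, against 1.15 for 40 over 25 min. The next 5 kb held 0.750, 1.23 and 1.47, and the stretch of 20 to 25 kb held 0.768, 0.976 and 1.15. For 40 over 25 min these 2 windows had ratios of 1.20 and 1.18. The relative increase in the second interval was thus highest farther from the start than in the first interval. Averaged from 25 to 50 kb the signal was 1.04, 1.06 and 1.08, with ratios of 1.02 for 25 over 10 min and 1.01 for 40 over 25 min. Within that window the bins beginning at 25 and 26 kb still differed, with log2 ratios of 0.41 and 0.34 for 40 over 10 min.

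**Figure D1:**
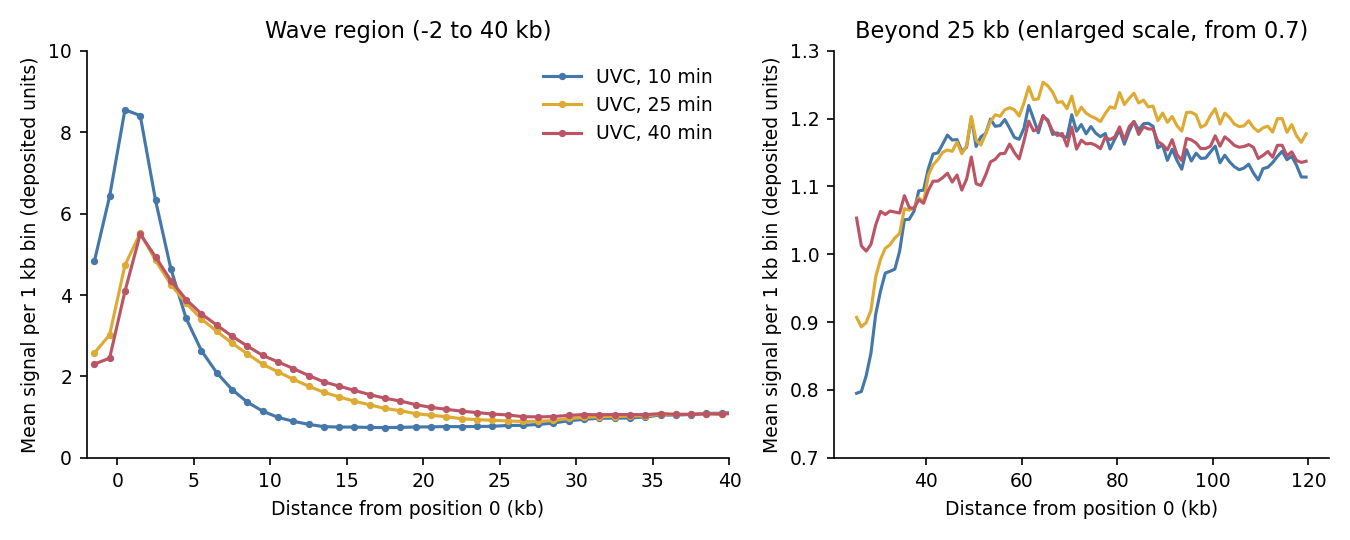
Mean signal in 1 kb bins against distance from position 0 for the 3 irradiated libraries, 1 line per time; left, -2 to 40 kb, and right, beyond 25 kb on an enlarged axis that starts at 0.7. The 10 min line is highest up to 4 kb and lowest from 4 to 37 kb. The ratio of the 40 to the 25 min line runs from 0.811 to 1.21.

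The same comparison was made in 122 consecutive bins of 1 kb, counting bins whose signal was higher by 25% or more, or lower by 20% or more, at the later time. At 25 min 18 bins (14.8%) were higher than at 10 min, and they formed 1 unbroken run from 5 to 23 kb. In the other direction 5 bins (4.10%) were lower, the run from -2 to 3 kb. The most extreme bins were those beginning at 11 kb, with a ratio of 2.15, and at -1 kb, with 0.470. These counts place the first interval's change in a block of gene body next to a block around gene starts.

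Between 25 and 40 min no bin passed these limits in either direction (0% higher and 0% lower). The most extreme ratios were 1.21, in the bin beginning at 17 kb, and 0.811, in that beginning at -1 kb. A ratio of 1.1 or more, or its inverse, was tried after the data were seen. By that limit 19 bins (15.6%), from 10 to 29 kb, were higher at 40 min and 3 bins (2.46%), from -2 to 1 kb, were lower. By the same limit the first interval had 23 higher bins (18.9%), from 4 to 27 kb, and 5 lower bins (4.10%), from -2 to 3 kb. The runs of higher bins thus ended within 2 kb of each other, and that of the second interval began farther downstream. Over the whole interval from 10 to 40 min, 22 bins (18.0%) were higher by 25% or more, from 5 to 27 kb. Again 5 bins (4.10%) were lower by 20% or more, from -2 to 3 kb.

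**Figure D2:**
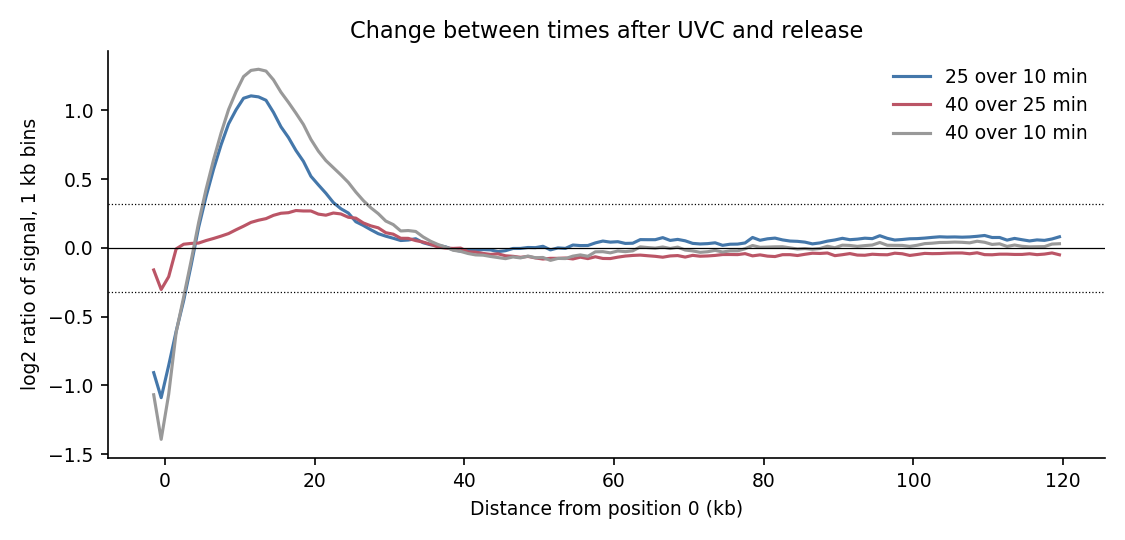
The log2 ratio of signal between pairs of times in 1 kb bins against distance from position 0, with dotted lines at a ratio 25% above 1 and at its inverse, and 1 library per time. The 25 over 10 min line peaks in the bin beginning at 11 kb, whereas the 40 over 25 min line stays inside the dotted lines and peaks in the bin beginning at 17 kb.

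The order of the libraries divided the profile into stretches. In the 4 bins from -2 to 2 kb signal as deposited was highest at 10 min and lowest at 40 min. In the bin beginning at 1 kb the 2 later times nearly coincided, at 5.52 and 5.49. From 4 to 37 kb, in 33 consecutive bins, the order was the opposite, with 10 min lowest and 40 min highest. In the 2 bins between these stretches 10 min was highest and 25 min lowest. Past 37 kb the order varied along the profile, and from 88 to 120 kb, in 32 bins, 10 min was lowest and 25 min highest; differences there were small and turned sign in part under other scalings. The order with 40 min highest was found in the stretch from 4 to 37 kb and in no other of the 122 bins. The outer end of that stretch rests on the scaling. As deposited, the smoothed 25 min profile came down to the 10 min profile at 37.8 kb. After division by own means this crossing lay at 35.6 kb, and after division by the last 12 kb at 30.4 kb.

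Near the start of genes each profile had a maximum on either side of position 0 and a dip between them, and their heights and partly their positions differed between times. In bins of 100 bp the highest bin downstream of position 0 began at 800 bp at 10 min and at 1100 bp at both later times. In time order its signal was 9.64, 5.76 and 5.68. A dip lay just before position 0, in the bin beginning at -100 bp at 10 min and at -200 bp at 25 and 40 min. The dip signal was 5.14, 2.58 and 1.96 in time order. A small shoulder was present in the bin beginning at 100 bp, with 7.88, 4.36 and 3.40. As deposited, all 3 features were lower at each later time. For the highest bin, however, the ratio of 40 to 25 min was 0.987, nearer to 1 than the 0.970 from 100 to 120 kb. Its order at the later times thus rests on the scaling.

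Upstream of the dip lay another maximum, a region where transcripts running away from the gene are commonly seen, though strand cannot be read from these profiles. It reached 7.18 at 10 min and 3.22 at 25 min, both in the bin beginning at -400 bp, and 2.63 at 40 min in the bin beginning at -800 bp. The upstream maximum was 74.5%, 55.98% and 46.3% of the downstream one in time order. Signal before position 0 was thus reduced more with time than signal after it. The mean from -2 to 0 kb was 5.62, 2.80 and 2.38, and the 40 min value was 0.422 of the 10 min value. The matching ratio from 0 to 2 kb was 0.565.

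Within the first 2 kb the second interval differed by position. The ratio of 40 to 25 min was lowest in the bin beginning at -100 bp, at 0.755. It was 0.779 in the bin beginning at 100 bp, 0.864 at 500 bp and 0.977 at 1000 bp. In the bin beginning at 1500 bp it was 0.997, and at 1900 bp it was 1.01. Signal within about the first kilobase was therefore lower at 40 than at 25 min, whereas from 1.1 to 2 kb the 2 libraries nearly coincided. In the first interval the ratio was below 1 across the whole stretch, from 0.447 in the bin beginning at -300 bp to 0.709 in that beginning at 1900 bp.

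**Figure D3:**
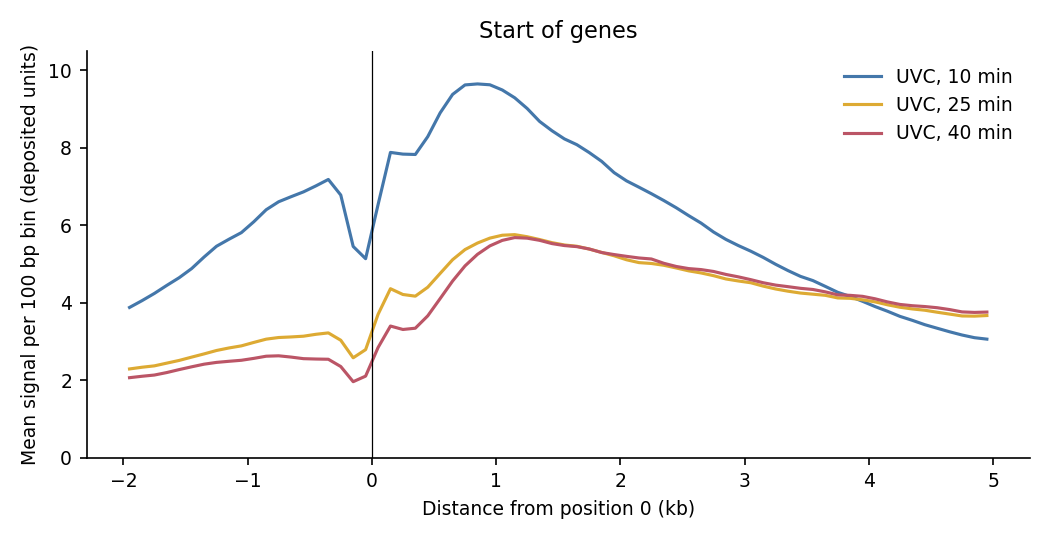
Mean signal in 100 bp bins from -2 to 5 kb in the 3 irradiated libraries, 1 line per time, with a vertical line at position 0. The 10 min line reaches 9.64, above the later lines from -2 kb to about 4 kb, and the 25 and 40 min lines merge past 1 kb.

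How far the wave reached was measured at fixed signal levels, the same in every library. These distances depend on the height and scaling of each profile, and the smoothed signal at 2 kb was 7.37, 5.19 and 5.22 in time order. A running mean of 2 kb was applied to each profile, and the first position past 2 kb at or under a level was read. A signal of 4 was reached at 4.03, 4.06 and 4.29 kb in the 10, 25 and 40 min libraries. At this height the distances nearly coincided, close to the 4.01 kb where the smoothed 10 and 25 min profiles crossed. The order of 10 and 25 min was reversed under 3 of the 4 other settings. A signal of 3 was reached at 5.03, 6.88 and 7.45 kb. A signal of 2 was reached at 6.72, 11.1 and 12.7 kb. The lower the level, the farther its position differed between times.

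At the foot of the wave the distances were longer. In time order, a signal of 1.5 was reached at 8.07, 14.5 and 17.1 kb. The lowest level read, a signal of 5/4, was reached at 9.03, 17.1 and 20.3 kb. That foot level was 8.07 kb farther at 25 than at 10 min, but 3.25 kb farther at 40 than at 25 min. As rates these are 0.538 and 0.217 kb per min. The lowest smoothed value past 2 kb was 0.743, 0.894 and 1.01 in time order. The rates thus belong to a fixed signal, not to a fixed height above that floor. At a signal of 2 the rates were 0.293 and 0.102 kb per min, and at a signal of 3 they were 0.123 and 0.0385 kb per min. The second displacement was 0.403, 0.410, 0.349 and 0.314 of the first at signals of 5/4, 1.5, 2 and 3. With each profile divided by the mean of its last 12 kb these ratios were 0.507, 0.521, 0.482 and 0.626, so their size rests on the scaling. At all 4 of these levels the edge was displaced less in the second interval, and under each of the 4 other settings tried for smoothing and scaling as well.

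**Figure D4:**
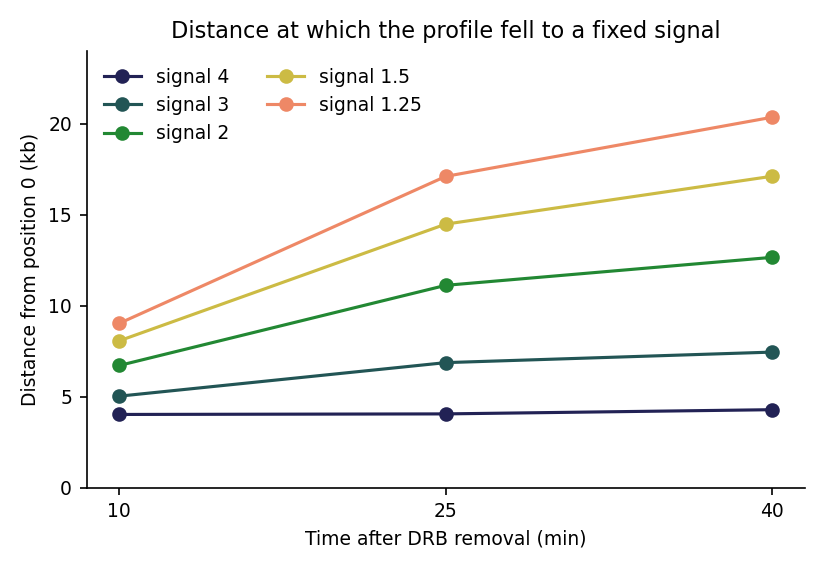
Distance from position 0 at which the 2 kb running mean first fell to a signal of 4, 3, 2, 1.5 or 5/4 (1 line each), against time after DRB removal, 1 point per library. The lines spread with time, from 4.03 to 9.03 kb at 10 min to between 4.29 and 20.3 kb at 40 min, and they flatten after 25 min.

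The shape of the falling side was described by the distance over which the signal above each library's own trough (its lowest smoothed value past 2 kb) declines to 50%. From 2 to 5 kb this distance was 1.89, 4.48 and 4.46 kb in time order. From 5 to 10 kb it was 1.80, 4.76 and 5.37 kb. From 10 to 15 kb it was 0.879 kb at 10 min, where little signal above the trough was left, against 3.89 and 4.67 kb. From 2 to 10 kb the 10 min profile was thus steeper than both later ones. The 10 to 15 kb values depend on the background, and at 10 min the excess there nears 0 by construction, as the trough lay at 16.8 kb. With the mean of the last 12 kb as background, that stretch gave 2.525 kb at 25 min and 4.005 kb at 40 min, and no value at 10 min. From 5 to 10 kb the 10 min value was then 0.6675 kb.

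The decline can also be read as a share of each library's own signal at 2 kb, which removes the scaling. Above the trough, 34.5% of the 2 kb value remained at 5 kb at 10 min, 63.1% at 25 min and 64.3% at 40 min. At 10 kb the shares were 4.94%, 30.6% and 34.0%. At 15 kb they were 0.191%, 12.8% and 16.7%, and at 20 kb they were 0.240%, 4.001% and 6.36%. The 10 min trough lay at 16.8 kb, so the 10 min shares at 15 and 20 kb were near 0 by construction. Without subtracting the trough, the shares were 10.3%, 27.8% and 32.8% at 15 kb. At 20 kb they were then 10.3%, 20.5% and 24.4%. By the share above the trough the later profiles were alike from 2 to 5 kb and differed more beyond. They also differed before 2 kb, with 69.5% at 25 min and 53.8% at 40 min at position 0.

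The amount of signal past 2 kb was measured as the area above the trough, from 2 kb to the trough. This area leaves out 0 to 2 kb, where the mean signal was 8.48, 5.13 and 4.79 in time order. It is thus not the whole wave, and its differences between times would be smaller with that stretch included. In time order it was 18.2, 26.6 and 28.6 signal units times kilobases. The distance within which 50% of that area lay was 3.85, 6.21 and 6.68 kb in time order. For 90% of the area it was 7.74, 14.1 and 15.4 kb. The upper end of the area differed between libraries, because the trough lay at 16.8, 26.6 and 27.6 kb. With 1 background for all, the 10 min trough, and the same range of 2 to 25 kb, the areas were 18.0, 29.9 and 34.5. This common setting was added after the data were seen.

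On the common setting the excess could be divided between stretches of gene. In the 10 min library 67.4% of it lay between 2 and 5 kb, and 28.8% between 5 and 10 kb. At 25 min the shares were 35.7% and 34.99%, and at 40 min they were 31.8% and 32.9%. The stretch from 10 to 15 kb held 2.89%, 17.3% and 18.8% in time order. The background was the 10 min trough, which lay at 16.8 kb, so the 10 min shares around it were near 0 by construction. From 15 to 25 kb the shares at 10 min were 0.193% and 0.680% in the 2 stretches of 5 kb. They were 8.13% and 3.88% at 25 min, and 10.6% and 5.94% at 40 min. With that background, nearly all of the 10 min excess from 2 to 25 kb lay before 10 kb. At both later times about as much lay from 5 to 10 kb as from 2 to 5 kb.

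Subtracting one smoothed profile from the next showed where signal was added and removed in each interval. From 10 to 25 min the difference was below 0 up to 4.01 kb, above 0 from there to 37.8 kb, and largest at 8.41 kb. There the signal was 1.41 at 10 min and 2.58 at 25 min. At least 50% of that largest gain was present from 5.03 to 16.1 kb. The largest loss of the smoothed profiles lay at 0.201 kb, where the 2 kb running mean was 7.80 at 10 min and 4.15 at 25 min. A mean over 2 kb spans the dip and the maxima beside it there, so this position depends on the smoothing. In bins of 100 bp the largest loss was in that beginning at 600 bp, from 9.37 to 5.11. Summed over positions, the difference was -14.2 signal units times kilobases before the first crossing, and the gain up to the next crossing was 14.4. The near balance rests on the deposited scaling, under which the totals of these libraries were almost equal. With each profile divided by the mean of its last 12 kb the sums were -15.7 and 12.5, and the crossings lay at 4.27 and 30.4 kb.

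From 25 to 40 min the difference crossed 0 nearer to the start, at 1.82 kb, and again at 37.7 kb. The gain was largest at 15.1 kb, where the signal was 1.43 at 25 min and 1.70 at 40 min. At least 50% of it was present over a broad stretch from 5.76 to 26.0 kb. The largest loss of the smoothed profiles lay at -0.190 kb, where the 2 kb running mean went from 3.61 to 2.998. This position too depends on the smoothing. In bins of 100 bp the largest loss was past position 0, in the bin beginning at 100 bp, from 4.36 to 3.40. The summed values were -1.51 before the first crossing, 5.35 between the crossings and -3.48 past the second. These sums too rest on the deposited scaling. With each profile divided by the mean of its last 12 kb they were -1.13, 7.46 and -0.514. Past 37.7 kb the mean difference was -0.0423, and the smoothed 40 min signal was below the 25 min signal at every position.

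**Figure D5:**
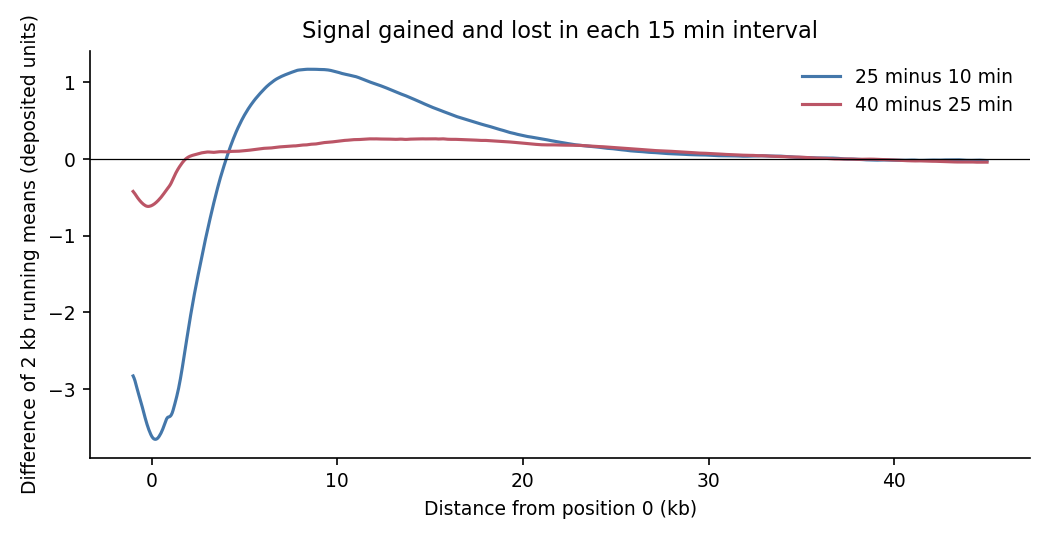
Difference between 2 kb running means of neighbouring times (25 minus 10 min and 40 minus 25 min) against distance from position 0, -1 to 45 kb. The first difference crosses 0 at 4.01 kb and peaks at 8.41 kb; the second crosses at 1.82 kb and is low and broad, with its maximum at 15.1 kb.

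Ahead of the wave each profile passed through a low stretch before it reached a plateau. In time order the lowest smoothed signal was 0.743, 0.894 and 1.01. The signal first came down to the level of the last 12 kb of the profile at 9.64, 18.02 and 22.5 kb in time order. It was back at 95% of that level at 37.8, 41.4 and 40.3 kb. The low stretch was thus 28.1, 23.3 and 17.7 kb wide in time order, and its width differed mainly by where it began. The near edge moved outward with time, and the far edge lay between 37.8 and 41.4 kb in all 3 libraries.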

How the data were processed

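GRO-seq profiles of 3 irradiated libraries were used, 1 per time, grouped by the source name in the labels. Per the labels' protocols, sequencing was single-end with 51 bp reads from libraries that keep strand. The submitters' processing notes name BWA 0.5.9 and the hg19 (GRCh37) build. The deposited files hold, per the file headers, a signal at each position for 1 library, averaged over genes per the file names. The gene set, strand handling, any read extension and the scaling are not given in the sources used here. In each library 100% of the values were whole multiples of 1 step (within 0.05 step). An average can be carried by a few highly transcribed genes, and the 5 min run-on lengthens transcripts. The scaling moves heights, and hence the distances at fixed signal levels, but not the shares of a library's own signal.

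Window means, 1 kb and 100 bp bins, running means of 2 kb, fixed-level distances, troughs (from 2 kb on), areas and differences came from numpy 2.4.6 and pandas 2.3.3 under Python 3.11.15. No background was subtracted unless stated, and no pseudocount was used. The last 12 kb (108001 to 120000 bp) served as the distal level. The upstream maximum was sought from -1500 to -250 bp and the dip from -500 to 500 bp. The decline was a least-squares slope of log2 excess over 1 kb bins. The functions were tested on simulated profiles. No gene is named, because the values are averages over genes. The windows and measures were chosen with earlier results of these data known. Alternatives changed the scaling, smoothing, background, bin size, fold and window summary.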

Additional observations from a re-analysis of the deposited data

How the results depend on the processing

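With 1 library per time there was no replicate spread or counting interval, so a recomputed value was taken as moved when it differed by over 10%, by over 0.1 for a log2 ratio, or by over 1.5 times for a count. Of 302 recomputed values 274 were within these limits and 28 moved. Of 99 recomputed log2 ratios of windows 7 changed sign, all in windows beyond 25 kb with a size of at most 0.056 as deposited. Division by the mean of the last 12 kb turned 5 of them, among them 25 over 10 min from 25 to 50 kb (0.0283 to -0.0395) and 40 over 25 min from 100 to 120 kb (-0.044 to 0.0019). Division by the own mean turned the other 2. Division by each profile's own mean moved 0 of 60 values, and division by the mean of its last 12 kb moved 3 of 60. These divisors were close between libraries, at 1.40, 1.42 and 1.43, and at 1.13, 1.18 and 1.15, in time order. No log2 ratio could therefore move past 0.1, and these counts do not check a larger difference in scaling. With the last 12 kb as divisor the largest gain lay at 9.254 kb for 25 minus 10 min. For 40 minus 25 min it lay at 11.68 kb, with a size of 0.3252. A running mean of 5 kb put that second maximum at 13.58 kb, so its position is loosely fixed. With the mean of the last 12 kb as background the areas were 14.6, 21.06 and 25.38 at 10, 25 and 40 min. The distance to decline to 50% from 5 to 10 kb was then 0.6675 kb at 10 min and 4.018 kb at 25 min, and the distance holding 50% of the area was 5.484 kb at 25 min. No decline from 10 to 15 kb could be fitted at 10 min with that background, because the signal was below it. The common background and range, chosen after the data were seen, gave smoothed areas of 30.05 at 25 min and 34.56 at 40 min, and 7.418 kb for 50% of the area at 40 min. A fold of 1.1, also chosen later, gave 19 higher and 3 lower bins between 25 and 40 min, against 0 and 0. Distances, areas and troughs were in the order 10, 25, 40 min in 52 of 56 sets. The exceptions were 3 of 5 sets at a signal of 4 and the trough position with a running mean of 0.5 kb (27.34 kb at 25 min, 27.31 kb at 40 min). No paired analysis was possible because each group held 1 library. Read depth is unknown, so what it limits could not be stated.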

Other observations

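Far from the start of genes the 3 irradiated libraries kept a common level. In the 70 bins of 1 kb from 50 kb on, signal ranged from 1.11 to 1.22 at 10 min, from 1.16 to 1.254 at 25 min and from 1.101 to 1.205 at 40 min. The medians were 1.17, 1.205 and 1.16, so the 25 min library was slightly the highest. The 25 min library was also higher than the 10 min library by ratios of 1.02, 1.04 and 1.05 in the windows from 50 to 75, 75 to 100 and 100 to 120 kb. The 40 min library was lower than the 25 min library by ratios of 0.956, 0.966 and 0.970 in the same windows. These small differences moved with the scaling. With each profile divided by the mean of its last 12 kb, which lies in this region, the log2 ratio of 25 over 10 min was -0.034, -0.012 and 0.0033 in these windows, from 0.034, 0.056 and 0.071 as deposited. That of 40 over 25 min was -0.020, -0.0035 and 0.0019, from -0.065, -0.049 and -0.044. With each profile divided by its own mean it was -0.068, -0.052 and -0.047.

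The outline of this region was partly shared. The highest 1 kb bin began at 64 kb at both 25 and 40 min and at 61 kb at 10 min. Across the 70 bins Pearson's r was 0.73 between 10 and 25 min, 0.88 between 25 and 40 min and 0.46 between 10 and 40 min. These correlations are across neighbouring positions of averages that may share genes, and the bins are not independent. The lowest bin began at 51 kb at 25 and 40 min, near the inner end of the region, but at 109 kb at 10 min.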
